A study of Rattus norvegicus with 52 samples.

Results

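The genes examined were 9 enzymes that carry fatty acids into liver mitochondria and oxidise them there: Cpt1a, Cpt2, Acadm, Acadl, Acadvl, Hadha, Hadhb, Acaa2 and Decr1. They were chosen by the sequence accession that begins the probe set's name on the array, with every suffix taken, which gave 11 probe sets of the 8740 that are not array controls. Hadha and Decr1 each had 2 probe sets, which measure the same gene and are not independent. The study profiled total RNA of liver sections from F344 rats, a laboratory rat strain, on 52 Affymetrix rat arrays. The rats were untreated or had received clofibric acid (CA) at 0.29% or 0.54%, and the sections were prepared in 5 ways. CA is a fibrate, a lipid-lowering drug that acts through the nuclear receptor PPAR alpha. Entire sections were measured on 8 arrays of untreated rats, 8 at 0.29% CA and 6 at 0.54% CA. Stained sections were measured on 8, 7 and 5 arrays in the same order of dose. Dehydrated sections and LCM-reference-time sections (LCM is laser capture microdissection, in which chosen tissue is lifted from a section with a laser) had 1 array at each dose. Microdissected sections had 2 arrays of untreated rats and 1 at each dose of CA. How CA was given and for how long, and the rats' age and sex, are not stated there, and nothing says whether arrays of a group came from separate rats. P-values here therefore measure the spread between these arrays, which may be technical in part.

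Long-chain fatty acids enter the mitochondrion as carnitine esters. Cpt1a, on the outer membrane, makes the ester and is the controlled step of the pathway in liver, and Cpt2, on the inner membrane, turns it back into an acyl-CoA. The acyl-CoA dehydrogenases Acadvl, Acadl and Acadm then take the first step of each oxidation round on very long, long and medium chains, the trifunctional protein of Hadha and Hadhb completes the round on long chains, Acaa2 is a thiolase of the later rounds, and Decr1 reduces the double bonds of unsaturated chains. In rodent liver many of these genes are known targets of PPAR alpha, which binds DNA with RXR at a repeat of the letters AGGTCA spaced by a single base.

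The start sites of Hadha and Hadhb, the subunits of a single enzyme, lie head to head with 300 bases between them in the RefSeq annotation of the rat genome build GRCr8, so the 250 bases before the start of Hadha are mostly shared with Hadhb. RefSeq promoter windows were found for 6 of the 9 genes, and the 250 bases before the start were searched on both strands for AGGTCA, for AGGTCA repeated with any single base between, and for GGGCGG, the core of the GC box. AGGTCA was in 1 of the 6 windows, that of Acadvl, 169 and 17 bases before the start, against 14.1% of the 33469 windows of the same length in the table. The spaced repeat was in 0 of the 6 and in 0.0508% of all windows. GGGCGG was in 3 of the 6, against 30.5% of all windows: Cpt2, Hadha and Hadhb. The Hadha match, 210 bases before its start, and the Hadhb match 96 bases before its start are the same bases. The windows of Hadha and Hadhb are therefore not independent in this count. The sequences shown are the windows of the shared Hadha and Hadhb stretch, of Cpt2, which holds the most GC boxes, and of Acadvl, which holds AGGTCA, each read 5′ to 3′ on the gene's own strand up to the base before the start, with the matches on either strand in capitals. A match describes letters only and is not a measured binding site.
Hadha (GRCr8 chr6:31907551-31907800, plus strand): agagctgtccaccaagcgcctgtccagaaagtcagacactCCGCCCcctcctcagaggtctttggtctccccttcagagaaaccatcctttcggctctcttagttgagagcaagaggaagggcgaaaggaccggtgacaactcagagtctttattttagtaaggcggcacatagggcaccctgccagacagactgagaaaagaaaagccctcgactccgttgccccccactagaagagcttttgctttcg
Cpt2 (GRCr8 chr5:127910819-127911068, minus strand): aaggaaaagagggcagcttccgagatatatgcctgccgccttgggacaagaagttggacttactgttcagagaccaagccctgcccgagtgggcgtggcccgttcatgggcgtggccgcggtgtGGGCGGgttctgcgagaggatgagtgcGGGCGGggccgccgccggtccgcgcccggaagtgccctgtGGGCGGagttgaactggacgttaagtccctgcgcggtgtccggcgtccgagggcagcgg
Acadvl (GRCr8 chr10:55236706-55236955, minus strand): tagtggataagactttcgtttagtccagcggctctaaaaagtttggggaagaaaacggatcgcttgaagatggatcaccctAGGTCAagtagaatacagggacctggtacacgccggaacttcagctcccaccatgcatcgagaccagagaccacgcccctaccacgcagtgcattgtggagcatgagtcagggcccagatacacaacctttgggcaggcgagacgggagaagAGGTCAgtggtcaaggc

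The deposited values were whole-number intensities, and in all 15 groups the 9 genes lay above the floor of 4 on every array. An array control for the state of the RNA differed between preparations. The array carries GAPDH controls for either end of the transcript, and their 3′ to 5′ ratio is higher where RNA is broken. The ratio's median over the 22 entire sections was 1.54, and 8.45 over the 20 stained sections. Within stained sections its median was 10.2 in controls, 7.32 at 0.29% CA and 4.47 at 0.54% CA, so it moved with dose there. In entire sections the medians were 1.36, 1.35 and 2.16. In all, 6 arrays of these preparations stood apart by a GAPDH ratio above 4 in entire sections or by a 5S rRNA control above 200 in stained sections. The array of 0.29% CA at LCM-reference time also had a 5S rRNA control of 587, and in microdissected sections the control's highest value was 285, with 319 at 0.29% and 754 at 0.54% CA. Values without the 6 arrays are given where they move a result.

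In entire sections most of the pathway rose with CA and no member fell. At 0.29% CA, 9 of the 11 probe sets, covering 7 of the 9 genes, were higher than in untreated liver at an adjusted p under 0.05 (limma, Benjamini-Hochberg over all 7804 probe sets tested), where 5.55% of all probe sets were higher and 5.69% lower. At 0.54% CA the count was again 9 of 11, where 8.10% of all were higher and 7.74% lower. The median log2 difference of the 11 was 0.91 at 0.29% and 0.95 at 0.54%, beside medians of all probe sets tested of -0.01 at either dose. Both doses were set against the same 8 control arrays. The 2 probe sets that did not pass were those of Cpt1a and Acadvl at each dose. In stained sections, with their own controls, 7 of 11 probe sets of 5 genes were higher at 0.29% CA, where 1.83% of all 7913 tested were higher and 1.78% lower. At 0.54% CA, 7 of 11 were again higher, where 3.12% of all were higher and 3.18% lower. The 4 that did not pass in stained sections were those of Cpt1a, Cpt2, Acadm and Acadvl. On the normalised scale every CA array lay above every control array for 5 members in entire sections at 0.29% CA, 7 at 0.54% CA, and 7 in stained sections at either dose. The shares of all probe sets that did so were 2.19%, 3.55%, 1.03% and 2.21%. These are bulk sections, in which fewer cells of a type and less RNA per cell cannot be told apart. Levels below are deposited intensities, not normalised, on arrays whose mean intensity ran from 117 to 209, and they are not comparable between probe sets. Differences are log2 differences of normalised values with their standard error (SE).

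**Figure D1:**
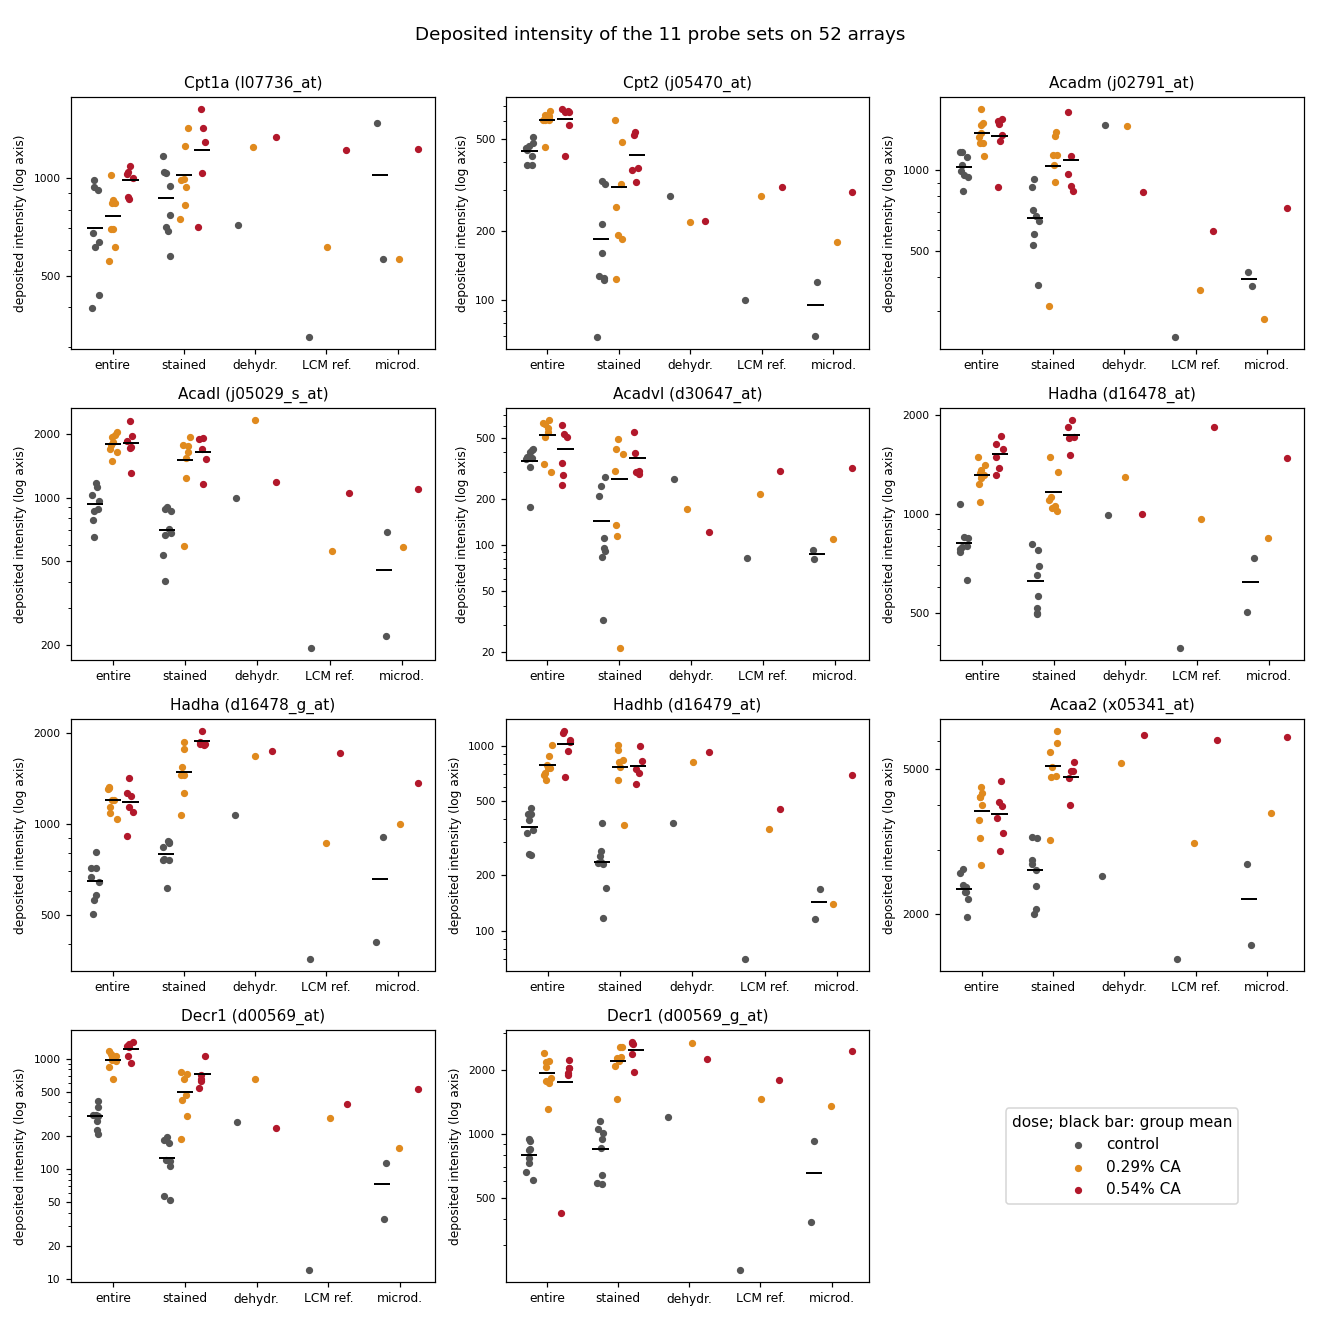
Deposited intensity (log axis) of the 11 probe sets on all 52 arrays, by section preparation and dose, each point an array and each black bar a group mean where a group has more than 1 array. In entire sections the Decr1 d00569_at points at 0.29% CA run from 655 to 1173 and those of controls from 208 to 413, whereas the Cpt1a points of the same groups run from 554 to 1021 and from 398 to 987.

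The carnitine palmitoyltransferases answered unequally. Cpt1a (l07736_at) in entire sections had a lowest, median and highest intensity of 398, 656.5 and 987 in controls, 554, 767.5 and 1021 at 0.29% CA, and 866, 1018 and 1089 at 0.54% CA. The control arrays were spread widely, with 5 between 398 and 678 and 3 between 921 and 987, and both CA groups overlapped them. The log2 difference was 0.13 ± 0.18 (95% interval -0.24 to 0.50) at 0.29% CA, adjusted p = 0.748, and 0.54 ± 0.19 (0.14 to 0.94) at 0.54% CA, adjusted p = 0.0596. The second value is near the threshold and passed it in several other fits, at an adjusted p of 0.0264 when dim probe sets were left out first and of 0.033, 0.0352 and 0.0218 without control replicate 6, 7 or 8. In stained sections Cpt1a had 576, 859.5 and 1171 in controls and 749, 988 and 1428 at 0.29% CA. The 5 arrays at 0.54% CA read 708, 1037, 1293, 1429 and 1644. The groups overlapped, with differences of 0.10 ± 0.23 (-0.37 to 0.57) and 0.18 ± 0.25 (-0.33 to 0.70) and adjusted p of 0.924 and 0.753.

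Cpt2 (j05470_at) rose in entire sections by a small and even amount. Its lowest, median and highest values were 385, 453.5 and 509 in controls, 464, 613 and 660 at 0.29% CA, and 422, 656.5 and 679 at 0.54% CA. At 0.29% CA 7 of the 8 arrays lay above all controls on the normalised scale. The rise was 0.43 ± 0.07, 1.35-fold, adjusted p = 0.000229 at 0.29%, and 0.44 ± 0.08, 1.36-fold, adjusted p = 0.000322 at 0.54%. The calls were lost without quantile normalisation, at adjusted p of 0.0612 and 0.0643, and in a fit that shared its spread with all 15 groups, at 0.299 and 0.265. In stained sections the same probe set was dim and scattered: 69, 143.5 and 330 in controls and 123, 255 and 604 at 0.29% CA, with 325, 369, 374, 520 and 537 at 0.54% CA. The differences there were 0.60 ± 0.30 (-0.03 to 1.23) and 1.05 ± 0.33 (0.35 to 1.74), with adjusted p of 0.437 and 0.0708. The second passed with dim probe sets left out (adjusted p = 0.0247) and without stained control replicate 3 (0.0378) or 4 (0.0411). The spread within groups of Cpt2 was a log2 SD of 0.12 in entire and 0.59 in stained sections.

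Among the acyl-CoA dehydrogenases, the long-chain enzyme Acadl had the largest fitted difference in entire sections at either dose. Acadl (j05029_s_at) read 654, 922 and 1173 in entire controls, 1503, 1812 and 2060 at 0.29% CA, and 1310, 1801 and 2304 at 0.54% CA. Every CA array lay above every control array. The rise was 1.05 ± 0.13, 2.07-fold, adjusted p = 3.28e-06, and 1.08 ± 0.14, 2.11-fold, adjusted p = 5.11e-06. In stained sections Acadl read 402, 693.5 and 907 in controls and 590, 1654 and 1951 at 0.29% CA, with 1168, 1531, 1713, 1907 and 1926 at 0.54% CA. A single 0.29% array, at 590, fell within the control range of deposited values, though none did after normalisation. The stained rises were 0.86 ± 0.16, 1.81-fold, adjusted p = 0.00196, and 0.97 ± 0.17, 1.96-fold, adjusted p = 0.00124.

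Acadm (j02791_at), the medium-chain enzyme, changed less. Entire controls read 839, 1019 and 1173, the 0.29% arrays 1130, 1353 and 1693, and the 0.54% arrays 863, 1420 and 1550. The ranges overlapped at each dose. The rise was 0.43 ± 0.11, 1.34-fold, adjusted p = 0.0132, and 0.39 ± 0.12, 1.31-fold, adjusted p = 0.0281. Either call was lost without quantile normalisation, at 0.184 and 0.242, and with all 15 groups, at 0.0712 and 0.119. The 0.54% call was also lost without the 6 arrays (0.0688) or without control replicate 2, or 0.54% replicates 3, 4 or 5, each left out alone (0.0565 to 0.0796). In stained sections Acadm read 376, 661.5 and 931 in controls and 313, 1137 and 1391 at 0.29% CA, with 836, 877, 971, 1133 and 1641 at 0.54% CA. The differences of 0.39 ± 0.19 (-0.01 to 0.79) and 0.43 ± 0.21 were close in size to those in entire sections and did not pass, with adjusted p of 0.417 and 0.288.

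Acadvl (d30647_at), the very-long-chain enzyme, had the widest spread of the members in stained sections, a log2 SD within groups of 1.04. Entire controls read 177, 369.5 and 419, the 0.29% arrays 299, 561.5 and 656, and the 0.54% arrays 247, 425 and 601. The differences were 0.54 ± 0.22 (0.07 to 1.0), adjusted p = 0.147, and 0.21 ± 0.24 (-0.29 to 0.71), adjusted p = 0.639. With the GAPDH ratio of each array in the fit, the SE of the first difference was 0.09 and both passed, at 0.52 (adjusted p = 0.000515) and 0.45 (adjusted p = 0.00436). In stained sections Acadvl read 32, 102.5 and 275 in controls and 21, 301 and 488 at 0.29% CA, with 288, 299, 301, 399 and 544 at 0.54% CA. All 5 arrays at 0.54% exceeded every control on the deposited scale, though not after normalisation. The stained differences were 0.53 ± 0.51, adjusted p = 0.759, and 1.29 ± 0.56 (0.11 to 2.46), adjusted p = 0.219. The median GAPDH ratio was lower at each higher dose of these stained groups, as given above. With the ratio in the fit 7 of 11 members were called at each dose, and Acadvl was not among them, while calls over all probe sets went from 286 to 263 and from 499 to 301.

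The trifunctional protein rose in both subunits and both preparations. Hadha, the alpha subunit, was read by d16478_at and d16478_g_at. In entire sections d16478_at had 633, 799 and 1071 in controls, 1087, 1321 and 1491 at 0.29% CA, and 1317, 1535 and 1726 at 0.54% CA. Neither CA group overlapped the controls on the deposited scale, and after normalisation 7 of the 8 arrays at 0.29% CA lay above all controls. The rises were 0.70 ± 0.11, 1.62-fold, adjusted p = 7.25e-05, and 0.95 ± 0.11, 1.93-fold, adjusted p = 2.72e-06. The other probe set, d16478_g_at, had 503, 654 and 809 in controls, 1041, 1201.5 and 1325 at 0.29% CA, and 911, 1190 and 1424 at 0.54% CA. Its rises were 0.94 ± 0.11, 1.91-fold, adjusted p = 2.02e-06, and 0.88 ± 0.12, 1.85-fold, adjusted p = 1e-05. In stained sections d16478_at read 499, 609 and 812 in controls and 1023, 1101 and 1490 at 0.29% CA, with 1515, 1708, 1714, 1836 and 1935 at 0.54% CA. Here too no CA array fell within the control range, and the rises were 0.69 ± 0.15, 1.61-fold, adjusted p = 0.0119, and 1.19 ± 0.17, 2.28-fold, adjusted p = 9.89e-05. The stained values of d16478_g_at were 615, 801.5 and 881 in controls and 1075, 1459 and 1873 at 0.29% CA, with 1831, 1842, 1845, 1871 and 2038 at 0.54% CA. These groups were separate as well, with rises of 0.68 ± 0.12, 1.60-fold, adjusted p = 0.00157, and 0.98 ± 0.13, 1.97-fold, adjusted p = 6.15e-05.

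Hadhb (d16479_at), the beta subunit that carries the thiolase step, read 256, 373 and 460 in entire controls, 652, 757.5 and 1016 at 0.29% CA, and 675, 1062 and 1208 at 0.54% CA. No CA array reached down to the controls. The rise was 1.15 ± 0.13, 2.23-fold, adjusted p = 7.4e-07, and 1.56 ± 0.14, 2.95-fold, adjusted p = 2.14e-08. In stained sections Hadhb read 117, 234 and 381 in controls and 371, 817 and 1007 at 0.29% CA, with 624, 712, 750, 824 and 999 at 0.54% CA. The lowest 0.29% array, at 371, was just under the highest control, though not after normalisation. The stained rises were 1.51 ± 0.18, 2.86-fold, adjusted p = 1.15e-05, and 1.44 ± 0.19, 2.72-fold, adjusted p = 4.86e-05.

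Acaa2 (x05341_at), the thiolase of the later rounds, read 1962, 2330.5 and 2655 in entire controls, 2733, 4090.5 and 4480 at 0.29% CA, and 2987, 3828 and 4632 at 0.54% CA. The deposited values did not overlap with controls at either dose. After normalisation 7 of the 8 arrays at 0.29% CA lay above all controls. The rise was 0.91 ± 0.15, 1.88-fold, adjusted p = 0.00013, and 1.0 ± 0.16, 2.0-fold, adjusted p = 9.01e-05. In stained sections Acaa2 read 1994, 2698 and 3248 in controls and 3195, 5086 and 6391 at 0.29% CA, with 3988, 4736, 4953, 4957 and 5236 at 0.54% CA. The lowest 0.29% array, at 3195, lay just under the highest control, though not after normalisation. The stained rises were 0.90 ± 0.15, 1.86-fold, adjusted p = 0.000816, and 0.85 ± 0.17, 1.80-fold, adjusted p = 0.00293. The second was not called without quantile normalisation (0.65, adjusted p = 0.0888), where the median of all probe sets was at -0.14.

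Decr1, the auxiliary reductase for unsaturated chains, held, through its probe set d00569_at, the largest fitted differences with CA of the 11. This probe set read 208, 305.5 and 413 in entire controls, 655, 993.5 and 1173 at 0.29% CA, and 913, 1288.5 and 1423 at 0.54% CA. The groups were fully apart, with rises of 1.77 ± 0.14, 3.40-fold, adjusted p = 3.99e-09, and 2.14 ± 0.15, 4.42-fold, adjusted p = 4.84e-10. In stained sections d00569_at read 52, 118.5 and 196 in controls and 186, 471 and 763 at 0.29% CA, with 543, 629, 647, 707 and 1063 at 0.54% CA. A single 0.29% array, at 186, was within the control range of deposited values, though none was after normalisation. The rises were 1.88 ± 0.25, 3.67-fold, adjusted p = 4.32e-05, and 2.32 ± 0.27, 5.0-fold, adjusted p = 7.7e-06. The other probe set, d00569_g_at, read 608, 809.5 and 954 in entire controls, 1322, 1955.5 and 2411 at 0.29% CA, and 424, 1997 and 2228 at 0.54% CA. The value of 424 is 1 array, replicate 3, below every control, while the other 5 lay between 1910 and 2228. The rises were 1.40 ± 0.29, 2.65-fold, adjusted p = 0.00225, and 1.13 ± 0.32, 2.19-fold, adjusted p = 0.016. Without replicate 3 the second was 1.58 (adjusted p = 8.6e-08), and without the 6 arrays that stood apart, of which replicate 3 is not one, it was 1.04 (adjusted p = 0.0607). In stained sections d00569_g_at read 585, 903.5 and 1152 in controls and 1466, 2294 and 2588 at 0.29% CA, with 1973, 2385, 2672, 2702 and 2732 at 0.54% CA. Those groups were apart, with rises of 1.17 ± 0.14, 2.26-fold, adjusted p = 1.61e-05, and 1.31 ± 0.16, 2.48-fold, adjusted p = 9.05e-06.

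**Figure D2:**
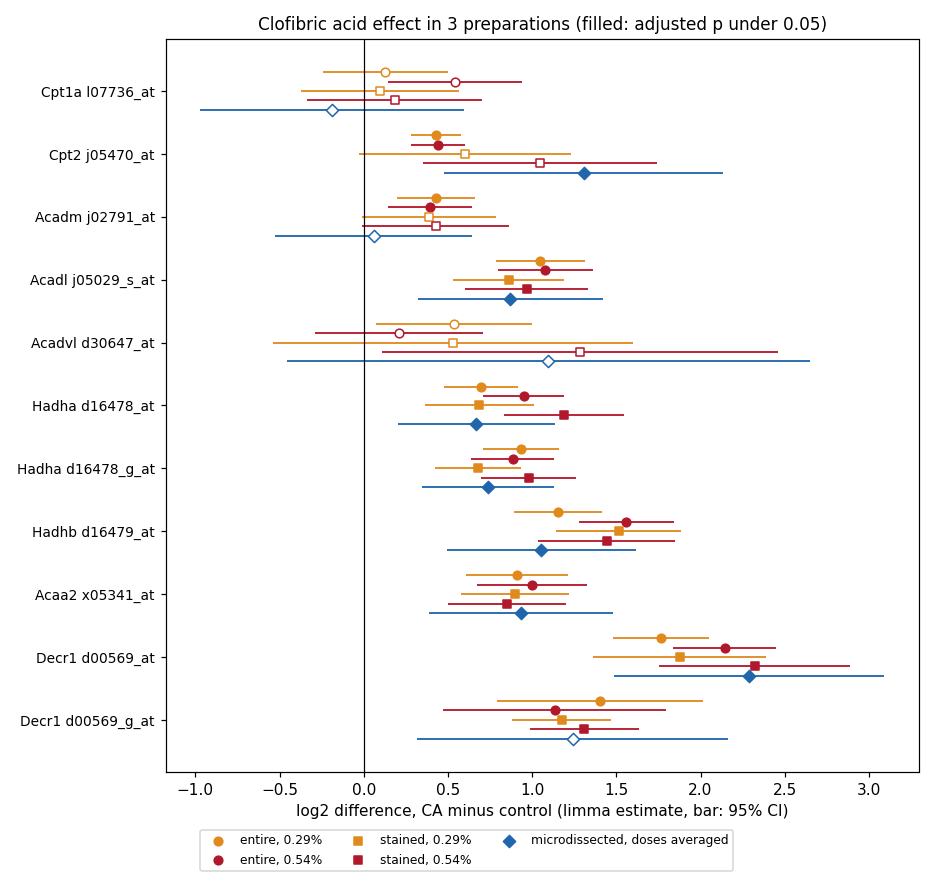
Log2 difference of CA against control for the 11 probe sets in entire, stained and microdissected sections, with 95% intervals (limma), filled where the adjusted p was under 0.05. Decr1 d00569_at lies farthest right in entire sections, at 1.77 and 2.14, and the Cpt1a intervals include 0 in 4 of 5 estimates.

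The higher dose was not separated from the lower by the test for any member. In entire sections 0 of 11 probe sets passed between 0.54% and 0.29% CA (limma), where 1.01% of all 7804 did so. The differences ran from -0.33 to 0.41, and 4 had an unadjusted p under 0.05: Cpt1a at 0.41 (95% interval 0.01 to 0.81, adjusted p = 0.434), Hadhb at 0.40 (0.12 to 0.69, adjusted p = 0.21), Decr1 d00569_at at 0.38 (0.07 to 0.68, adjusted p = 0.316) and Hadha d16478_at at 0.25 (0.02 to 0.49, adjusted p = 0.42). All 4 were higher at the higher dose. With array weights Hadhb passed, at 0.49 (adjusted p = 0.0165). With the replicate number as a block Cpt1a (0.55, adjusted p = 0.0393) and Decr1 d00569_at (0.49, adjusted p = 0.0473) passed. In stained sections 0 of 11 passed (limma), where 0.0632% of all 7913 did, and the 2 with an unadjusted p under 0.05 were the probe sets of Hadha, at 0.51 (0.14 to 0.87) and 0.30 (0.01 to 0.59).

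The response to CA was also compared between stained and entire sections, as the difference of the differences. At 0.29% CA 0 of 11 members differed (limma), where 0.0855% of all 8191 did, and 0 had an unadjusted p under 0.05. The members' values ran from -0.26 for Hadha d16478_g_at to 0.36 for Hadhb. At 0.54% CA 0 of 11 differed again, where 0.134% of all did, and 0 had an unadjusted p under 0.05. There the values ran from -0.36 for Cpt1a to 1.08 for Acadvl, whose interval ran from -0.15 to 2.30, and Cpt2 was at 0.61 (-0.06 to 1.27). For Hadha, Hadhb, Acadl, Acaa2 and Acadm the intervals of this difference at 0.54% CA all lay between -0.60 and 0.62.

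The level of several members differed between preparations without CA. Of the 11, 2 rose and 3 fell from untreated entire to untreated stained sections, where 16.4% of all 8191 probe sets were higher and 13.8% lower (limma), a share of members not far from that of the whole array. On the normalised scale 1 member, Hadha d16478_g_at, lay wholly above and 1, Cpt2, wholly below the entire controls, as 2.98% and 3.92% of all probe sets did. Cpt1a was higher by 0.68 ± 0.20, 1.60-fold, adjusted p = 0.00702, and Hadha d16478_g_at by 0.67 ± 0.10, 1.59-fold, adjusted p = 3.38e-06. Cpt2 was lower, at -1.0 ± 0.21, adjusted p = 0.000299, and all 8 stained controls, at 69 to 330, lay under all 8 entire controls, at 385 to 509. Decr1 d00569_at was lower, at -0.90 ± 0.19, adjusted p = 0.000332, with 52 to 196 against 208 to 413. Acadvl was lower, at -1.08 ± 0.39, adjusted p = 0.0304, a call that was lost without stained control replicate 2, 5, 6 or 7, each left out alone (0.0507 to 0.0929). Acadm was at -0.35 ± 0.14, adjusted p = 0.0665, and passed without stained control replicate 1 (0.0349) or 5 (0.0435). Acadl, Hadha d16478_at, Hadhb, Acaa2 and Decr1 d00569_g_at lay between -0.19 and 0.39 with none called. With arrays centred on their medians in place of quantile normalisation, all probe sets tested had a median difference of 0.42 between the preparations. On that scale Acaa2 (0.69, adjusted p = 0.00052) and Decr1 d00569_g_at (0.61, adjusted p = 0.0314) were also called higher, little above the shift of the whole array.

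The GAPDH ratio moved with this comparison, at a median of 10.2 in stained and 1.36 in entire controls. With the ratio of each array in the fit, 1 of the 11 was still called, Hadha d16478_g_at at 0.56 (adjusted p = 0.022), while calls over all probe sets went from 2475 to 400. Cpt1a was then at -0.029 (adjusted p = 0.98) and Acadvl at 0.12 (adjusted p = 0.956), with their signs turned, while Cpt2 was at -0.52 (adjusted p = 0.386) and Decr1 d00569_at at -0.75 (adjusted p = 0.125). The preparation and the ratio overlapped little between the groups, so their parts in the result cannot be told apart here.

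**Figure D3:**
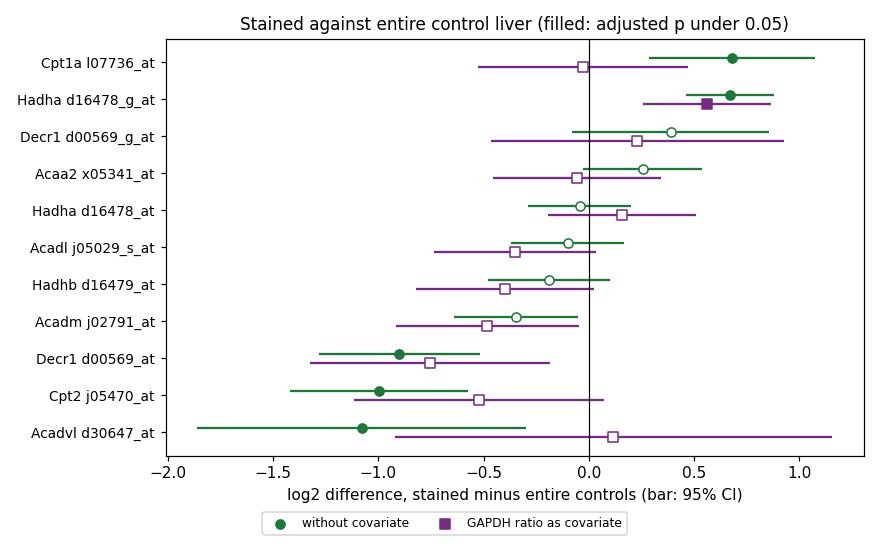
Log2 difference of stained minus entire untreated sections for the 11 probe sets, with 95% intervals, without (circles) and with (squares) the GAPDH 3′ to 5′ ratio as a covariate, filled where the adjusted p was under 0.05. Of the 5 filled circles, Hadha d16478_g_at alone keeps a filled square, at 0.56.

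The 2 probe sets of a gene did not always move alike. For each array the normalised log2 value of d00569_g_at was subtracted from that of d00569_at, a difference that carries each probe set's own brightness, so only its change between groups is read. The comparisons in this and the next paragraph were chosen after the values had been seen. Their p-values are exact two-sided permutation tests over arrays, adjusted over 20 comparisons. For Decr1 the difference was -1.53 ± 0.22 (SD, n = 8) in entire controls and -2.81 ± 0.61 (SD, n = 8) in stained controls, a change of -1.29 with no overlap between the groups (exact permutation p = 0.000155, the smallest these groups can give, adjusted 0.00155). It rose with CA, by 0.36 (exact permutation, adjusted p = 0.0168) and 1.01 (exact permutation, adjusted p = 0.00533) in entire sections and by 0.70 (exact permutation, adjusted p = 0.0335) and 1.01 (exact permutation, adjusted p = 0.00888) in stained sections at 0.29% and 0.54%. The entire value at 0.54% was 0.55 without replicate 3 (exact permutation, adjusted p = 0.00777), and the stained value at 0.29% did not pass without the 6 arrays (exact permutation, adjusted p = 0.0556) or without normalisation (exact permutation, adjusted p = 0.0874). So the size of the Decr1 rise depends on the probe set, and the larger one is from the probe set that was lower in stained than in entire controls.

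For Hadha, d16478_at minus d16478_g_at was 0.37 ± 0.17 (SD, n = 8) in entire controls and -0.34 ± 0.25 (SD, n = 8) in stained controls, a change of -0.71 with no overlap (exact permutation p = 0.000155, adjusted 0.00155). CA changed it in 1 of 4 comparisons, by -0.24 in entire sections at 0.29% (exact permutation, adjusted p = 0.0133). The beta subunit was then set against the alpha subunit. Hadhb rose more than Hadha d16478_at by 0.46 and 0.61 in entire sections at 0.29% and 0.54% CA (exact permutation, adjusted p = 0.00777 and 0.0133) and by 0.83 in stained sections at 0.29% (exact permutation, adjusted p = 0.0133), but not detectably at 0.54% (0.25, exact permutation, adjusted p = 0.437). Against d16478_g_at the excess was 0.22 (exact permutation, adjusted p = 0.108) and 0.67 (exact permutation, adjusted p = 0.0117) in entire sections, and 0.84 (exact permutation, adjusted p = 0.00533) and 0.46 (exact permutation, adjusted p = 0.0488) in stained sections, the last being 0.0952 without the 6 arrays. Hadhb minus d16478_g_at was also lower in stained than in entire controls, by 0.86 (exact permutation, adjusted p = 0.00518). The genes that share the printed stretch between start sites were thus both higher with CA. The rises of their probe sets differed in 6 of the 8 comparisons. These reuse the same Hadhb values and control arrays against both Hadha probe sets and are not independent. Probe sets of a single gene, Decr1, also rose unequally with CA. Whether the rises of the genes themselves differed was therefore not tested.

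**Figure D4:**
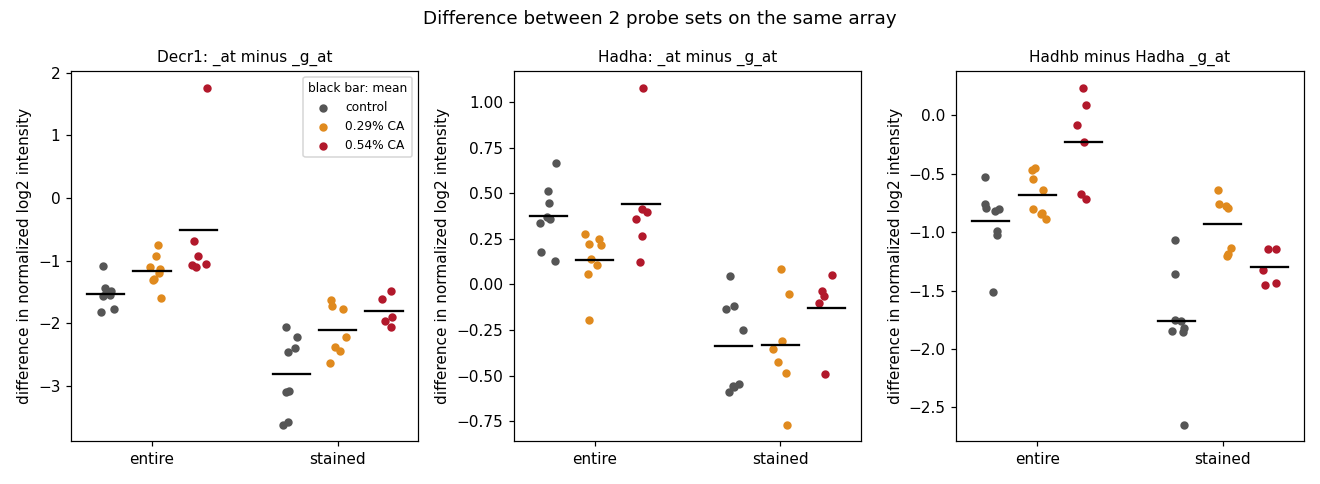
Difference in normalised log2 intensity between 2 probe sets on the same array, for Decr1, for Hadha and for Hadhb minus Hadha d16478_g_at, in entire and stained sections by dose, each point an array and each black bar a group mean. For Decr1 the stained controls (mean -2.81) lie wholly below the entire controls (mean -1.53), and 1 entire array at 0.54% CA, replicate 3, stands far above its group.

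Dehydrated and LCM-reference-time sections had 1 array a dose and allow no test. In dehydrated sections, control, 0.29% and 0.54% CA in that order, Acaa2 read 2541, 5202 and 6214, Hadhb 383, 822 and 925, and Cpt1a 718, 1251 and 1340. Decr1 d00569_at read 265, 651 and 237 while d00569_g_at read 1209, 2698 and 2272, and their normalised differences from control at 0.54% were 0.35 and 1.28. Acadvl read 269, 172 and 121, Acadm 1467, 1455 and 829, and Cpt2 283, 218 and 221, the control being highest for each before normalisation. After it, the differences from control at 0.29% and 0.54% were -0.61 and -0.59 for Acadvl, 0.09 and -0.43 for Acadm, and -0.33 and 0.20 for Cpt2. The GAPDH ratio of these 3 arrays was 6.36, 11.8 and 14.3, and their mean intensity 209, 189 and 162. After normalisation 9 of 11 members were above the control at each dose, with medians of 0.91 and 0.69. Of all probe sets 38.2% and 36.8% were above it. These shares also count probe sets at the floor on both arrays, which cannot lie above the control. No member was at the floor, so the shares are a low yardstick for the members.

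At LCM-reference time the control array had the lowest deposited value of the 3 for each of the 11 probe sets. Decr1 d00569_at read 12, 292 and 387, Acadl 193, 559 and 1056, Hadha d16478_at 392, 968 and 1842, and Acaa2 1499, 3142 and 6039. Cpt1a read 322, 612 and 1225 and Cpt2 100, 282 and 311. The mean intensity of the 3 arrays also went up in this order, at 127, 149 and 173. Normalised, the differences at 0.54% were 0.73 for Cpt1a, 0.72 for Cpt2, 0.98 for Acaa2, 0.99 for Hadha d16478_at, 1.28 for Acadl and 4.70 for Decr1 d00569_at, whose control was near the floor. After normalisation 10 of 11 members at 0.29% and 11 of 11 at 0.54% were above the control, with medians of 0.94 and 1.0. Of all probe sets 35.6% and 35.3% were above it, shares that again count those at the floor on both arrays. The GAPDH ratios were 7.28, 3.12 and 4.70.

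In microdissected sections the 2 controls lay far apart for several members. Decr1 d00569_at read 35 and 112 in the controls, 156 at 0.29% and 528 at 0.54% CA. Hadha d16478_at read 506 and 739, then 845 and 1479, and Decr1 d00569_g_at 384 and 925, then 1363 and 2465. For these the controls lay below both CA arrays. Hadhb read 116 and 169, then 140 and 698, Acadl 221 and 687, then 584 and 1101, and Cpt1a 564 and 1481, then 561 and 1230. At least 1 CA array of each lay within the control range of deposited values. The mean intensity of the 0.29% array was 117, against 150 and 166 in the controls. After normalisation both CA arrays lay above the controls for Hadhb (8.35 and 9.52 against 7.80 to 7.96) and Acadl (10.2 and 10.1 against 8.88 to 9.70). For Cpt1a they did not (10.1 and 10.3 against 10.2 to 10.7). With both doses averaged and the spread taken from all 15 groups, 7 of 11 members were higher, where 5.77% of all 8318 were higher and 7.08% lower (limma). Decr1 d00569_at was at 2.29 ± 0.40 (adjusted p = 6.8e-05), Hadhb at 1.05 ± 0.28 (adjusted p = 0.00789), Hadha d16478_g_at at 0.74 ± 0.19 (adjusted p = 0.00794), Acaa2 at 0.93 ± 0.27 (adjusted p = 0.0164) and Cpt2 at 1.31 ± 0.41 (adjusted p = 0.0281). Acadl, at 0.87, and Hadha d16478_at, at 0.67, were called less firmly, with adjusted p of 0.0274 and 0.0486. Decr1 d00569_g_at, at 1.24, Acadvl, at 1.10, Acadm, at 0.06, and Cpt1a, at -0.19, were not called. The 15-group fit assumes a common spread, whereas the median log2 SD within groups was 0.31 in entire and 0.486 in stained sections. In microdissected sections it was 0.331, from the 2 controls alone. On simulated data the fit called more unchanged probe sets than its threshold allows, but there microdissected arrays were given the spread of stained controls. The simulation therefore cannot show how often the fit errs on these arrays. Fitted with the stained groups alone, 4 members were called, both probe sets of Decr1, Hadha d16478_g_at and Acaa2, and 477 of all probe sets in place of 1069. In the 15-group fit the count was 4 without control replicate 1 and 2 without control replicate 2, and Acadl was then at 0.46 without replicate 2.

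Microdissected sections were also compared with stained sections over all doses. None of the 11 members passed (0 called, limma), where 12.3% of all 8318 did, and 3 had an unadjusted p under 0.05. Those were Hadhb at -0.41 ± 0.16 (adjusted p = 0.0822), Acadm at -0.37 (95% interval -0.70 to -0.03) and Hadha d16478_at at 0.29 (0.02 to 0.56). Without the 6 arrays Acadm (-0.44, adjusted p = 0.0342) and Hadha d16478_at (0.35, adjusted p = 0.037) were called. With arrays centred on their medians in place of quantile normalisation, Hadhb, Acadm and Acadl were called lower, Hadhb at -0.89 (adjusted p = 0.0109). Acadl passed without microdissected control replicate 1 (-0.44, adjusted p = 0.0464) and Hadhb without stained control replicate 2 (-0.45, adjusted p = 0.03).

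Around these genes, a list of 20 probe sets for peroxisomal oxidation, other mitochondrial oxidation, ketone body metabolism and fuel choice was followed by accession, since the files do not pair probe sets with names. With CA in entire sections 12 of 20 rose and 0 fell at each dose, with medians of 0.81 and 1.23, beside the 5.55% and 8.10% of all probe sets that rose. In stained sections 10 and 11 of 20 rose and 0 fell, with medians of 0.87 and 1.5, beside 1.83% and 3.12% of all that rose. The peroxisomal probe sets accounted for 7 of the 12 at 0.29% and 8 of the 12 at 0.54%, of 8 in all, with median log2 differences of 1.67 and 2.0. The largest rise at 0.29% in entire sections was that of j02749_at, at 5.14 ± 0.16. Of the 3 ketone body probe sets 1 rose at each dose and of the 2 for fuel choice 0 did. Between doses in entire sections 2 of the 20 were higher at 0.54%, where 1.01% of all differed in either direction. In microdissected sections 10 of 20 rose and 0 fell, where 5.77% of all rose and 7.08% fell. Between stained and entire controls 5 of the 20 were higher and 7 lower, where 16.4% of all were higher and 13.8% lower.

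Markers of other liver cells were followed in the same way, as 5 probe sets for macrophages and other leucocytes and 3 for stellate cells and fibroblasts. The hepatocyte accession in the list matched no probe set, so the hepatocyte content of the sections was not checked. The summed intensity of the leucocyte probe sets in entire sections was 1259 to 1864 in controls, 780 to 1561 at 0.29% and 661 to 1364 at 0.54% CA. In stained sections it was 856 to 1380, 767 to 1587 and 774 to 1272. Those of stellate cells summed to 123 to 391, 172 to 305 and 193 to 371 in entire and to 156 to 255, 72 to 190 and 91 to 194 in stained sections. No marker was at the floor throughout any of these 6 groups. With CA in entire sections 2 of the 8 fell and 0 rose at 0.29%, and 3 fell and 1 rose at 0.54%. All that fell there were among the 5 leucocyte probe sets, and the 1 that rose was among the 3 of stellate cells. Of all probe sets 5.69% and 7.74% fell there and 5.55% and 8.10% rose. In stained sections 0 and 1 of the 8 fell and 0 rose, where 1.78% and 3.18% of all fell and 1.83% and 3.12% rose. The 1 that fell in stained sections was a probe set of stellate cells. Between stained and entire controls 3 markers were higher and 3 lower, where 16.4% of all were higher and 13.8% lower. The part of these other cells in the members' rise was not tested.

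Over all 52 arrays, the probe sets whose pattern was most like the mean of the 11 members, each scaled to mean 0 and SD 1, were d00512_g_at (Pearson r = 0.965) and j02749_at (r = 0.963), among 2385 probe sets above the floor on every array. The arrays share their CA groups and preparations, and the GAPDH ratio moved with preparation, so these values describe the likeness and no more.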

How the data were processed

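The authors deposited 1 table of whole-number intensity values for 8799 probe sets on 52 arrays, some of them negative. How they were scaled is not stated there, and on arrays their number limits the precision. Mean intensity, GAPDH 3′ to 5′ ratio and the 5S rRNA control were read per array, and 0 pairs of arrays were identical (highest correlation 0.979). Values under 4, the 10th percentile of positive intensities, were set to 4, log2 was taken, and the 8740 probe sets that are not controls were quantile normalised over all arrays. Samples were grouped by sample title. Each comparison was fitted with limma 3.58.1 in R 4.3.3 over the groups of its own preparation, or both preparations where they were compared, with no covariate, and over all 15 groups for microdissected sections. A probe set was tested where any array of the fit had it above 4, and adjusted p under 0.05 (Benjamini-Hochberg over all tested) was called. The procedure was tested on simulated data. Pairs of probe sets were compared with exact permutation tests in SciPy 1.17.1 under Python 3.11.15. Figures used matplotlib 3.10.9.

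Every member is named with its values. The members, the lists and the tests were chosen with earlier results of these data known. For likeness, the 2 other probe sets with the highest Pearson r were named. Gene names of members come from the accessions that define them: 0 of 7683 accessions matched the RefSeq gene table, so list members have no name here. Promoter sequences are from RefSeq, build GRCr8. Alternatives were arrays centred on their medians without quantile normalisation, a floor of 20, and a filter on dim probe sets (under 66, the 75th percentile). Others were all 15 groups in a fit, array weights, the GAPDH ratio as covariate, a robust trended variance, and the replicate number as a block. The last were leaving out each replicate or 6 arrays in doubt. The comparisons of pairs of probe sets, and their alternatives, were added after the data were seen.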

Additional observations from a re-analysis of the deposited data

Results flagged for a closer look

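Of 66 sets of values (11 probe sets in 6 groups of 5 to 8 arrays), 7 held an array far from the others of its group by Dixon's test, which chance does in about 1 in 20 sets. For Decr1 these were d00569_at at 0.29% CA in entire sections (replicate 4, lowest, 655), d00569_at at 0.54% CA in stained sections (replicate 3, highest, 1063) and d00569_g_at at 0.54% CA in entire sections (replicate 3, lowest, 424). Acadvl had its lowest value far below the rest in entire controls (replicate 7, 177), an array with a GAPDH ratio of 6.25, and in stained sections at 0.29% CA (replicate 6, 21). The other two were Cpt2 (replicate 6, 464) and Acaa2 (replicate 8, 2733), both lowest in entire sections at 0.29% CA.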

How the results depend on the processing

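No called member changed sign under the alternatives run, except Cpt1a (-0.029) and Acadvl (0.12) between stained and entire controls with the GAPDH ratio as a covariate, where 1 of 11 members was called in place of 5, and 400 of all probe sets in place of 2475. For CA in entire and stained sections the counts of called members stayed within 1.5 times under each alternative, from 7 to 10 at either dose in entire sections and from 6 to 9 in stained sections. Between doses in entire sections array weights called 1 and the replicate block called 2 (Cpt1a at 0.55 and Decr1 d00569_at at 0.49), in place of 0. For CA in microdissected sections 7 became 3 with median centring in place of quantile normalisation, 1 with array weights and 4 with stained groups alone. Microdissected against stained sections gave 3 with median centring and 2 without the 6 arrays in doubt, in place of 0. The cause of these changes was not tested.

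Leaving out each replicate gave 9 to 9 and 8 to 10 called members in entire sections at 0.29% and 0.54% CA, 7 to 7 and 7 to 8 in stained sections, 0 between doses and for the differences between preparations, 4 to 6 between stained and entire controls, 2 to 4 in microdissected sections and 0 to 1 for microdissected against stained. Whether replicate numbers pair the arrays was not settled, since arrays of unlike number were not correlated for comparison. Of the 8 same-number pairs of entire control and 0.29% CA, 5 correlated above 0.1 in their deviations, with a highest r of 0.50. Of the 7 of stained control and 0.29% CA 6 did, with a highest r of 0.55, and in the other comparisons fewer did. With the replicate block 10 members were called at each dose in entire sections, Acadvl joining at 0.29% (adjusted p = 0.038) and Cpt1a at 0.54% (adjusted p = 0.0024). Signal limits Cpt2, Acadvl and Decr1 d00569_at in stained controls, where intensities went down to 69, 32 and 52.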
